A study of Mus musculus with 8 samples.

Results

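Cholesterol synthesis and its control by the SREBP factors were examined through 7 genes, which were chosen by name from the deposited table of counts as exact matches to the gene symbol. All 7 were found among 24078 entries and all passed the filter on low counts. They comprised 4 enzymes of sterol synthesis (Hmgcs1, Sqle, Cyp51 and Dhcr7), the genes of the 2 SREBP transcription factors (Srebf1 and Srebf2) and the gene of a protein that holds them in the endoplasmic reticulum (Insig1). The libraries came from hippocampus of 4 mice homozygous for the Wfs1 allele Wfs1tm1Koks and of 4 wild-type mice of that strain. Wfs1 encodes wolframin, a membrane protein of the endoplasmic reticulum (ER). The labels give neither age nor sex, and name no batch or litter. Total counts were 3250949 to 5077114 in homozygous libraries and 3296309 to 6747411 in wild-type libraries.

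Cells build cholesterol from acetyl-CoA through the mevalonate pathway, and in the brain nearly all of it is made locally, by astrocytes, by neurons and above all by oligodendrocytes during myelination. SREBP factors are made as ER membrane proteins. When ER sterol is low, the escort protein Scap carries them to the Golgi, where 2 proteases (encoded by Mbtps1 and Mbtps2) release the part that enters the nucleus and switches on sterol genes. When ER sterol is high, Insig proteins bind Scap and keep the complex in the ER. Srebf2 serves mainly sterol genes and Srebf1 mainly fatty acid genes, and Hmgcs1, Sqle, Cyp51, Dhcr7 and Insig1 are known targets.

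Sequences upstream of the genes are shown first, because SREBP factors are known to act at short sterol regulatory elements close to the start of their targets. RefSeq promoter windows on GRCm38.p6, from 250 bases before to 50 bases after the start, were found for 6 of the 7 members (none for Sqle), and those of the 4 members that were lower in homozygous libraries are printed 5′ to 3′ on the strand of the gene. They lie at chr13:119690101-119690400 on the plus strand for Hmgcs1, chr5:28071162-28071461 on the plus strand for Insig1, chr15:82147019-82147318 on the plus strand for Srebf2 and chr5:4104648-4104947 on the minus strand for Cyp51. Capitals mark 3 motifs searched on both strands: TCACCCCA, a sterol regulatory element core, TCACNCCAC, a consensus for SREBP-2, and ATTGG, the inverted CCAAT box bound by NF-Y, a known partner of SREBP factors.
Hmgcs1: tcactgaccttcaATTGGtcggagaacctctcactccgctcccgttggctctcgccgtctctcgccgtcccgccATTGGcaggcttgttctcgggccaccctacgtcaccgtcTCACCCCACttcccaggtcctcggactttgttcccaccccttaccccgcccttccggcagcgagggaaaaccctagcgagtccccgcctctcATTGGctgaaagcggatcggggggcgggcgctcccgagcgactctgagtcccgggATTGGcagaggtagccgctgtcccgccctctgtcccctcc
Insig1: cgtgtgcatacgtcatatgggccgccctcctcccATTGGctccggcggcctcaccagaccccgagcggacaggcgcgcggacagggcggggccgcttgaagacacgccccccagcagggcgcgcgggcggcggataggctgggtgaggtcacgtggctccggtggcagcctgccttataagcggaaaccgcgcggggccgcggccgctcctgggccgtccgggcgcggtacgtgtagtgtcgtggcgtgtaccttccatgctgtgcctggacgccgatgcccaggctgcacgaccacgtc
Srebf2: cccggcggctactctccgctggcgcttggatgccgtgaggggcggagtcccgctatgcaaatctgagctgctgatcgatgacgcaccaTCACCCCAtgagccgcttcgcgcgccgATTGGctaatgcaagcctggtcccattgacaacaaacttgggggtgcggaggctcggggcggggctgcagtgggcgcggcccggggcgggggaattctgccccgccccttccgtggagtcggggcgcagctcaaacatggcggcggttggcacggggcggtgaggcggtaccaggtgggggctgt
Cyp51: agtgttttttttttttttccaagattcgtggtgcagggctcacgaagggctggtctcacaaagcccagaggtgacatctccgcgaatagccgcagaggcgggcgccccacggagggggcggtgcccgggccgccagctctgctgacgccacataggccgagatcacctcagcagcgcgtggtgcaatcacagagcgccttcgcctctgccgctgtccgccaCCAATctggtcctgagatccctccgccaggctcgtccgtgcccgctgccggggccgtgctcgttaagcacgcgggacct

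The Hmgcs1 window held TCACCCCA at position -137 from the start, overlapping a TCACNCCAC match at the same position, and 4 copies of ATTGG at -237, -176, -45 and 10. The Srebf2 window held TCACCCCA at -162 and ATTGG at -135. The windows of Insig1 and Cyp51 held ATTGG alone, at -216 and -29, the copy of Cyp51 on the other strand as CCAAT. Among 32851 promoter windows of the same length in the RefSeq table, 1.56% held TCACCCCA, 1.24% held TCACNCCAC and 37.4% held ATTGG. Neither sterol motif was matched in the 3 windows each of Srebf1 and Dhcr7. ATTGG was matched there too, at -166 and -30 in separate windows of Srebf1 and at -85 and -49 in a single window of Dhcr7. The motifs were chosen after the sequences had been seen, and a match describes letters in these windows only.

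The targeted gene was checked in every library. Wfs1 had 16.3, 17.7, 13.3 and 12.03 CPM in homozygous replicates 15, 16, 17 and 18, against 54.6, 47.5, 61.3 and 44.6 CPM in wild-type replicates 7, 8, 9 and 10 (CPM throughout is the count scaled to library size with edgeR's TMM factors). Hippocampal field markers were present in both genotypes, with none of 8 at 0. Several cell type marker lists differed between genotypes. The summed level of 5 neuronal genes was 1069 to 1249 CPM in homozygous and 1532 to 2167 CPM in wild-type libraries, with 4 of them lower and 1 higher. That of 6 oligodendrocyte genes was 936 to 1160 CPM in homozygous and 1371 to 2195 CPM in wild-type libraries (5 lower). The 6 astrocyte genes summed to 873 to 1095 CPM in homozygous and 1219 to 1538 CPM in wild-type libraries (3 lower). Of these genes, Aqp4, Gja1 and Aldh1l1 were not called, with log2 fold changes of -0.13, -0.07 and 1.02 (adjusted p 0.448, 0.816 and 0.0816, edgeR). The 8 hippocampal field genes summed to 364 to 432 CPM in homozygous and 558 to 698 CPM in wild-type libraries (4 lower). For comparison, 20.4% of all genes tested were called lower and 20.7% higher. In abundance decile 10, which holds the most abundant genes, 55.1% were called lower and 12.7% higher. The part of cell makeup in the results on sterol genes was not tested, and in whole tissue fewer cells of a type and less RNA per cell cannot be told apart.

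Of the 7 members, 4 were lower in homozygous hippocampus and none was higher. Insig1 and Hmgcs1 differed most, to 0.646 and 0.689 of the wild-type level, followed by Cyp51 at 0.740 and Srebf2 at 0.751. Sqle, Dhcr7 and Srebf1 did not pass the test. Such calls were common in these libraries: of 20478 genes tested, 41.1% were called at an adjusted p under 0.05 (edgeR's quasi-likelihood test, Benjamini-Hochberg over all genes), 20.4% of them lower and 20.7% higher as a share of all genes. For the members the share called was 4 of 7, and the median log2 fold change was -0.41 against 0.05 over all genes. The calls depended on the setting. Of the members, 1 was called with a trend on abundance removed, 2 with such a trend on the density of counts along exons removed, and 3 with library totals as the scaling, where 1 of the 3 was higher. With 1 library left out, 6489 to 8229 of all genes were called, against 8409 with all libraries. Members called were 2 or 3 in 7 of those 8 fits, and the same 4 without wild-type replicate 8. The same 4 were called lower, and none higher, in 5 further settings, which were RLE size factors (41% of all genes called, 19.8% higher and 21.2% lower), no filter on low counts (36.4%, 17.8% higher and 18.6% lower), 1 CPM in 4 libraries (38.7%, 19.1% higher and 19.5% lower), DESeq2 (39.5%, 18.8% higher and 20.8% lower) and limma-voom (45.2%, 22.7% higher and 22.5% lower).

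**Figure D1:**
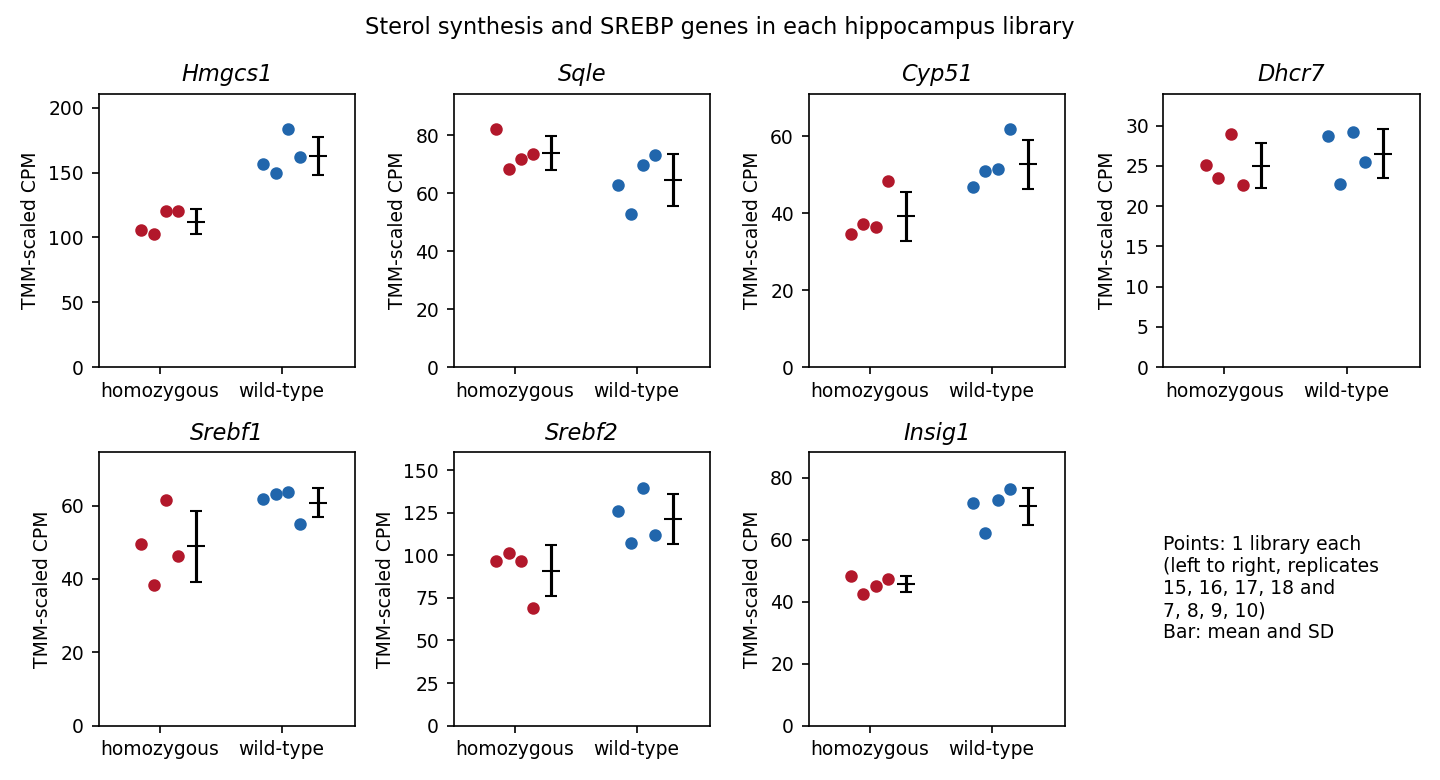
TMM-scaled CPM (vertical axis, from 0) of each of the 7 genes in 4 homozygous (red) and 4 wild-type (blue) libraries, with the mean and SD beside the points. Homozygous points lie entirely below wild-type points for Hmgcs1, Srebf2 and Insig1, and the genotypes overlap for the other 4 genes.

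Hmgcs1 encodes cytosolic HMG-CoA synthase, an early enzyme of the mevalonate pathway. It lies on chromosome 13, 119690379 to 119708260 of mm10 (plus strand). Its level was 106, 103, 120.3 and 120.3 CPM in homozygous replicates 15 to 18, against 156, 149.5, 184 and 162 CPM in wild-type replicates 7 to 10. Every homozygous library lay below every wild-type library, which held for 3 of the 7 members, against 18.8% of all genes tested in this direction (37.6% in either). The mean was 112 ± 9.33 CPM in homozygous and 163 ± 14.7 CPM in wild-type libraries (SD, n = 4 each), which gave -0.54 as the log2 fold change (SE 0.12, adjusted p 0.00553). Exons of Hmgcs1 overlap those of Gm48342, an antisense gene on the opposite strand that has no counts of its own. The strand setting of the counting is not known, so reads of that gene cannot be told apart.

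Sqle encodes squalene epoxidase, the first oxygen-requiring and a rate-limiting step of the sterol branch. The gene occupies 59315077 to 59331192 of chromosome 15 (plus strand). It had 82.1, 68.2, 72.0 and 73.7 CPM in homozygous libraries and 62.8, 52.9, 69.6 and 73.2 CPM in wild-type libraries. The genotypes overlapped, and replicate 8 was the lowest of all libraries. The means were 74.0 ± 5.87 CPM in homozygous and 64.6 ± 8.94 CPM in wild-type libraries, a log2 fold change of 0.19 with a 95% interval of -0.09 to 0.48 and an adjusted p of 0.252 (edgeR). Sqle was the only member above 0, except with library totals as the scaling, where Dhcr7 was above 0 too.

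Cyp51 encodes lanosterol 14-alpha-demethylase, a cytochrome P450 of the ER, and lies at 4081145 to 4104746 of chromosome 5 (minus strand). Its level was 34.6, 37.2, 36.4 and 48.4 CPM in homozygous replicates 15 to 18 and 46.9, 50.9, 51.5 and 61.9 CPM in wild-type replicates 7 to 10. The groups overlapped through 1 homozygous library, replicate 18, which was above wild-type replicate 7. The means of 39.2 ± 6.27 CPM in homozygous and 52.8 ± 6.38 CPM in wild-type libraries gave a log2 fold change of -0.43 (SE 0.14, adjusted p 0.0292). The call was lost in 5 of 8 fits that left out 1 library, with adjusted p of 0.0861 without homozygous replicate 15, 0.0518 without homozygous replicate 16, 0.0616 without homozygous replicate 17, 0.0546 without wild-type replicate 9 and 0.0825 without wild-type replicate 10. Cyp51 shares exon sequence on the opposite strand with Akap9, a scaffold of kinase signalling, which was also lower (96.2 ± 6.31 CPM in homozygous, 128 ± 7.88 CPM in wild-type, log2 fold change -0.42, adjusted p 0.0131). Akap9 did not pass with library totals (-0.21, adjusted p 0.167) or with the abundance trend removed (-0.19, adjusted p 0.228). No source used here gives the strand setting of the counting, so reads of this pair cannot be told apart.

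Dhcr7 encodes 7-dehydrocholesterol reductase, which makes cholesterol in the last step of one branch, and whose loss causes Smith-Lemli-Opitz syndrome in people. It spans 143823145 to 143848410 of chromosome 7 (plus strand). Its level was the lowest of the members, at 25.1, 23.5, 28.9 and 22.6 CPM in homozygous libraries and 28.7, 22.7, 29.2 and 25.5 CPM in wild-type libraries. These ranges almost coincide. The means were 25.0 ± 2.79 CPM in homozygous and 26.5 ± 3.03 CPM in wild-type libraries, a log2 fold change of -0.09 with a 95% interval of -0.39 to 0.21 (adjusted p 0.617).

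Srebf2 encodes SREBP-2, the main activator of sterol genes, and lies on chromosome 15 at 82147181 to 82205379 (plus strand). It had 96.8, 102, 96.6 and 69.3 CPM in homozygous replicates 15 to 18, against 126, 107, 140 and 112 CPM in wild-type replicates 7 to 10. The genotypes did not overlap, although homozygous replicate 18 stood well below the other homozygous libraries. The means of 91.1 ± 14.7 CPM in homozygous and 121 ± 14.5 CPM in wild-type libraries gave a log2 fold change of -0.41 (SE 0.15), close to the threshold with an adjusted p of 0.0433. Only 2 of 8 fits with 1 library left out kept the call, those without homozygous replicate 16 and without wild-type replicate 8. In the others adjusted p was 0.0636, 0.0519 and 0.0863 without homozygous replicates 15, 17 and 18, and 0.0996, 0.130 and 0.0589 without wild-type replicates 7, 9 and 10. Mir33, the microRNA in an intron of Srebf2, was listed with 1 to 4 counts in every library, too few to compare.

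Srebf1 encodes SREBP-1, and occupies 60199089 to 60222581 of chromosome 11 (minus strand). Its level was 49.5, 38.3, 61.6 and 46.4 CPM in homozygous libraries and 61.7, 63.1, 63.7 and 54.9 CPM in wild-type libraries. Homozygous replicate 17 lay within the wild-type range and the other 3 homozygous libraries below it. The means were 48.9 ± 9.65 CPM in homozygous and 60.8 ± 4.04 CPM in wild-type libraries, a log2 fold change of -0.31 with a 95% interval of -0.63 to 0.01 (adjusted p 0.104). Without homozygous replicate 17 it passed, with a log2 fold change of -0.45 and an adjusted p of 0.0240. Its exons overlap Rai1, a chromatin regulator on the opposite strand, which was lower (74.2 ± 7.13 CPM in homozygous and 167 ± 35.4 CPM in wild-type libraries, log2 fold change -1.17, adjusted p 0.000377), and here too the reads of the pair cannot be told apart.

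Insig1 encodes the ER anchor that binds Scap under high sterol. The gene lies on chromosome 5, 28071363 to 28078662 (plus strand). It had 48.4, 42.4, 45.1 and 47.3 CPM in homozygous replicates 15 to 18, against 71.8, 62.4, 73.0 and 76.4 CPM in wild-type replicates 7 to 10. The highest homozygous library was well below the lowest wild-type library, and Insig1 had the least spread of the 7 genes in homozygous libraries (coefficient of variation 5.77%, against 7.93% to 19.7% for the others). The means were 45.8 ± 2.64 CPM in homozygous and 70.9 ± 5.99 CPM in wild-type libraries, a log2 fold change of -0.63 (SE 0.11, adjusted p 0.00163). Insig1 was the only member called lower in all 16 other fits together with the main one, with log2 fold changes of -0.65 to -0.37 over 8 changes of processing and -0.70 to -0.60 over 8 fits that each left out 1 library.

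**Figure D2:**
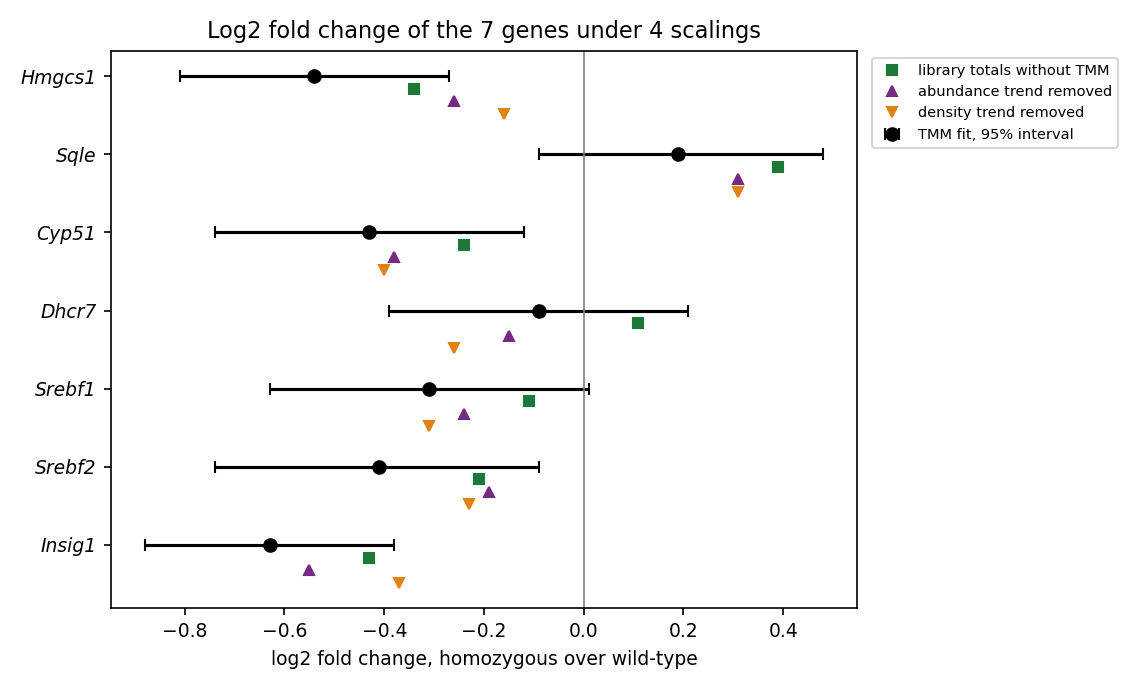
Log2 fold change, homozygous over wild-type (horizontal axis), of the 7 genes with TMM scaling and its 95% interval (black), with library totals as the only scaling (squares), and with a trend on abundance (triangles up) or on counts per kilobase of exon (triangles down) removed. Insig1 lies below 0 under each, at -0.63, -0.43, -0.55 and -0.37, whereas Dhcr7 lies on both sides of 0.

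Members were also read against genes of like abundance, since fold changes went down with mean CPM across the table. Abundance decile 10, the most abundant genes, had a median of -0.46 (log2), with 55.1% called lower, against 0.30 in decile 1. Hmgcs1 and Srebf2 stand in decile 10, and their values of -0.54 and -0.41 lie close to its median. Insig1 and Sqle stand in decile 9, where the median was -0.21 and 34.9% of genes were called lower, with Insig1 below that median and Sqle above it. Cyp51 and Srebf1 are in decile 8 (median -0.10), and Dhcr7 in decile 6 (median 0.08). When each library's curve of counts on abundance was removed, Insig1 alone was called (-0.55, adjusted p 0.00414, edgeR), against 35.1% of all genes (18.2% lower and 16.9% higher). In that fit Hmgcs1 was -0.26 (adjusted p 0.0956), Cyp51 -0.38 (adjusted p 0.0538) and Srebf2 -0.19 (adjusted p 0.310). When the curve was on counts per kilobase of exon, 34.2% of all genes were called (18.7% lower and 15.5% higher) and, of the members, Insig1 (-0.37, adjusted p 0.0270) and Cyp51 (-0.40, adjusted p 0.0426), while Hmgcs1 was -0.16 (adjusted p 0.268) and Srebf2 -0.23 (adjusted p 0.247).

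**Figure D3:**
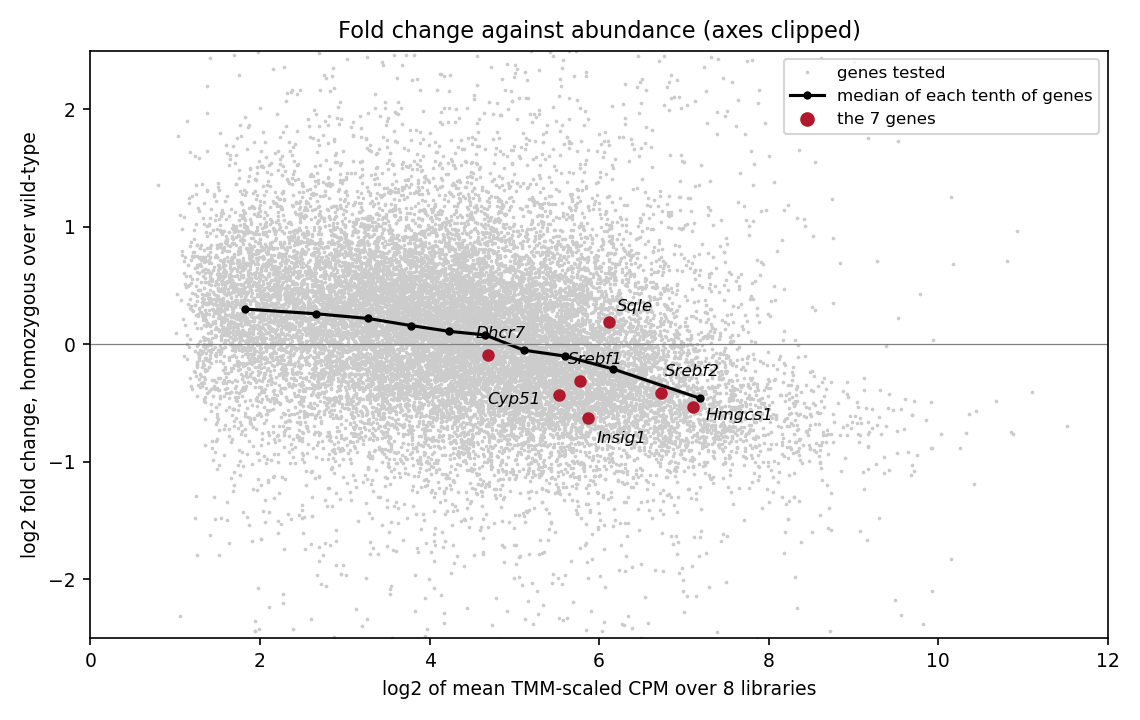
Log2 fold change, homozygous over wild-type (vertical axis), against log2 of the mean TMM-scaled CPM over 8 libraries (horizontal axis) for all genes tested (grey), with the median of each abundance decile (black) and the 7 genes (red); 249 genes lie outside the axes. Hmgcs1 and Srebf2 lie near the median of decile 10, Insig1 below the median of its decile and Sqle above it.

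Scaling by library totals alone put the median of all genes at 0.25 (log2), against 0.05 with TMM, and every member's value was higher too. Sqle was then called higher (0.39, adjusted p 0.0463, edgeR), Hmgcs1 (-0.34, adjusted p 0.0456) and Insig1 (-0.43, adjusted p 0.0166) were called lower, and Cyp51 (-0.24, adjusted p 0.192) and Srebf2 (-0.21, adjusted p 0.290) did not pass. In that setting 44.2% of all genes were called, 32.4% higher and 11.8% lower.

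Levels of different genes were compared per kilobase of exon (GENCODE M21). In homozygous libraries the order was Hmgcs1 with 24.4 ± 2.03 CPM per kilobase, Insig1 14.8 ± 0.854, Sqle 13.3 ± 1.06, Srebf2 12.7 ± 2.05, Cyp51 8.87 ± 1.42, Srebf1 8.69 ± 1.71 and Dhcr7 4.30 ± 0.479 CPM per kilobase (SD, n = 4). In wild-type libraries it was Hmgcs1 with 35.5 ± 3.20, Insig1 22.9 ± 1.94, Srebf2 16.9 ± 2.02, Cyp51 with a range of 10.6 to 14.0, Sqle 11.7 ± 1.61, Srebf1 10.8 ± 0.717 and Dhcr7 4.56 ± 0.521 CPM per kilobase. Hmgcs1 stood apart as the highest and Dhcr7 as the lowest in both genotypes. From Insig1 down to Srebf1, each gene overlapped its neighbour in the order in homozygous libraries, whereas in wild-type libraries Insig1 and Srebf2 were each apart from the next gene and the ranges of Cyp51, Sqle and Srebf1 overlapped from one to the next. Sqle thus stood above Srebf2 and Cyp51 in the homozygous order of means and below both in the wild-type order.

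Ratios of counts within a library do not depend on how libraries are scaled. The ratio of Dhcr7 to Hmgcs1, a late over the earliest of the 4 enzymes, was 0.237, 0.229, 0.240 and 0.188 in homozygous replicates 15 to 18, against 0.184, 0.152, 0.159 and 0.157 in wild-type replicates 7 to 10. It was higher in every homozygous library than in any wild-type library, and the group means differed by 0.45 on the log2 scale. A two-sided exact permutation test gave p = 0.0286, the smallest that 70 arrangements allow, and 0.0857 after adjustment over 3 ratios. With the abundance trend removed the difference was 0.12, and it was -0.08 once the curve on counts per kilobase was taken out. The ratio of Srebf1 to Srebf2 was 0.377 to 0.669 in homozygous and 0.456 to 0.587 in wild-type libraries, with no separation (log2 difference 0.09, exact permutation p = 0.686, and -0.05 and -0.08 with the trends removed). That of Insig1 to Srebf2 was 0.417 to 0.682 in homozygous and 0.522 to 0.681 in wild-type libraries (log2 difference -0.21, exact permutation p = 0.286). That difference was -0.34 and -0.13 with the abundance trend and the trend on counts per kilobase removed. Without homozygous replicates 16 and 18 it was -0.11 and -0.35, and without wild-type replicate 10 it was -0.13.

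**Figure D4:**
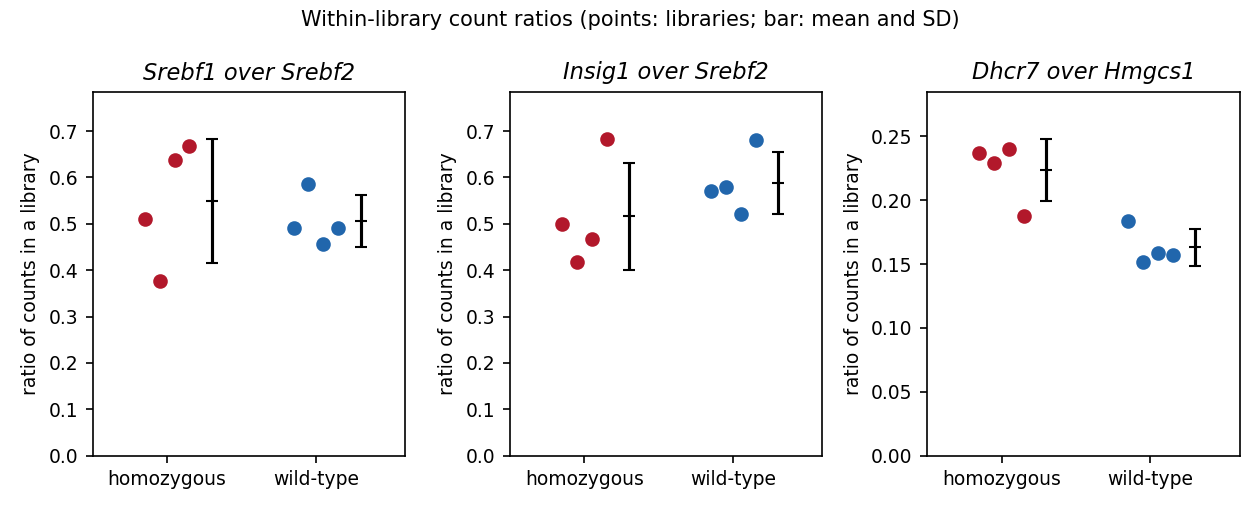
Ratio of counts of 2 genes within each library (vertical axis, from 0) for 4 homozygous (red) and 4 wild-type (blue) libraries, with mean and SD. The ratio of Dhcr7 to Hmgcs1 is at least 0.188 in homozygous and at most 0.184 in wild-type libraries, while the other 2 ratios overlap between genotypes.

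Similarity of pattern was measured as the mean absolute difference of log2 CPM over the 8 libraries, each gene centred on its own mean, so that 0 means identical profiles. Among the members Hmgcs1 and Insig1 were the most alike (0.099) and Insig1 and Sqle the least (0.412). The 2 genes nearest to Hmgcs1 over the whole table were Oat, an ornithine aminotransferase (0.029), and the RNA helicase gene Ddx17 (0.035). For Insig1 they were the ubiquitin ligase gene Arih2 (0.031) and 6330407J23Rik (0.038). Those for Srebf2 were Nol6 (0.045) and Rnf10 (0.057), for Cyp51 Rabep1 (0.043) and Lias (0.052), and for Srebf1 Samd4b (0.051) and Agfg2 (0.053). For Dhcr7 they were Gtf3c1 (0.048) and Kdm2a (0.057), and for Sqle Nckap1l (0.060) and Shpk (0.061). No gene of sterol synthesis or SREBP control was among these 14.

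The wider sterol synthesis pathway had 18 measured enzymes, of which 6 were lower, 1 higher and 11 passed in neither direction, with a median log2 fold change of -0.42 (0.05 over all genes). Over all genes 41.1% were called, 20.4% lower and 20.7% higher. Besides Hmgcs1 and Cyp51, the 4 lower were Lss, Sc5d, Fdft1 and Idi1. Lss, the lanosterol synthase that closes the sterol rings right after Sqle, had 20.1, 15.7, 16.5 and 16.4 CPM in homozygous and 43.1, 41.0, 34.6 and 35.8 CPM in wild-type libraries, a log2 fold change of -1.15 (SE 0.14, adjusted p 0.000169). Fdft1, the squalene synthase just before Sqle, had 24.0 to 30.9 CPM in homozygous and 35.4 to 46.7 CPM in wild-type libraries (log2 fold change -0.61, SE 0.13, adjusted p 0.00485). Sc5d, the desaturase before Dhcr7, and Idi1, the isopentenyl isomerase, had log2 fold changes of -0.77 and -0.47 (adjusted p 0.00167 and 0.0155). Idi1 did not pass with library totals (-0.27, adjusted p 0.140) or with the curve on counts per kilobase (-0.32, adjusted p 0.0738). The enzyme that was higher, Hsd17b7, rested on homozygous replicate 17: it had 84.8, 108, 293 and 78.4 CPM in homozygous and 51.6, 75.6, 51.7 and 61.6 CPM in wild-type libraries. Its log2 fold change of 1.23 became 0.58 (adjusted p 0.0220) without that library, and it did not pass without wild-type replicates 7 or 9 (adjusted p 0.0579 and 0.0600). Among enzymes that did not pass, Sc4mol, a methylsterol oxidase, was -0.45 (adjusted p 0.0633) and Nsdhl, a sterol dehydrogenase, -0.40 (adjusted p 0.100). Nsdhl passed without homozygous replicate 18 (-0.53, adjusted p 0.0450) and with the abundance trend (-0.51, adjusted p 0.0445) or the trend on counts per kilobase (-0.53, adjusted p 0.0424) removed. Sc4mol passed without homozygous replicate 16 (-0.57, adjusted p 0.0283), without wild-type replicate 9 (-0.54, adjusted p 0.0486), with limma-voom (-0.56, adjusted p 0.0233) and with the curve on counts per kilobase (-0.50, adjusted p 0.0440). Library totals gave 4 enzymes lower and 2 higher (11.8% and 32.4% of all genes), removing the abundance trend 7 lower and 1 higher (18.2% and 16.9%), and the curve on counts per kilobase 8 lower and 1 higher (18.7% and 15.5%). Summed oligodendrocyte and neuronal markers were lower in the same libraries, as given above, though 1 neuronal gene was higher. Of 4 oligodendrocyte precursor genes, 2 were higher and 1 lower. The part of cell makeup in these values was not tested.

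Of 14 measured genes of SREBP control, 7 were lower, 2 higher and 5 passed in neither direction, with a median log2 fold change of -0.46, where 20.4% of all genes were lower and 20.7% higher. Library totals gave 2 lower and 2 higher (11.8% and 32.4% of all genes), and either trend removed 6 lower and 1 higher. Shares of all genes were then 18.2% lower and 16.9% higher on abundance, and 18.7% and 15.5% on counts per kilobase. Both proteases that release SREBP in the Golgi were lower: Mbtps1 had 41.9 to 49.7 CPM in homozygous and 51.5 to 74.1 CPM in wild-type libraries (log2 fold change -0.52, adjusted p 0.0126), and Mbtps2 24.4 to 35.0 CPM in homozygous and 38.4 to 51.5 CPM in wild-type libraries (-0.58, adjusted p 0.0109). Neither protease passed with library totals (-0.32, adjusted p 0.0989, and -0.37, adjusted p 0.0578). The ER ubiquitin ligase gene Rnf139 had 72.2, 75.5, 85.9 and 97.5 CPM in homozygous and 111, 113, 112 and 134 CPM in wild-type libraries (-0.51, SE 0.13, adjusted p 0.0110). The genotypes did not overlap for Rnf139, but it did not pass with library totals (-0.31, adjusted p 0.0804) or with a trend removed (-0.31, adjusted p 0.0890, on abundance and -0.24, adjusted p 0.161, on counts per kilobase). The sterol carriers of the ER membrane were divided, since Gramd1a was lower (44.0 ± 9.86 CPM in homozygous and 65.1 ± 11.1 CPM in wild-type libraries, log2 fold change -0.57, adjusted p 0.0235), Gramd1b was lower (29.9 ± 3.41 CPM in homozygous and 47.0 ± 4.25 CPM in wild-type libraries, log2 fold change -0.65, adjusted p 0.00244) and Gramd1c higher (1.18, adjusted p 0.0161, and 1.04, adjusted p 0.0502, without wild-type replicate 9). The genotypes overlapped for Gramd1c, with 175.2 to 490.5 CPM in homozygous and 87.0 to 198.0 CPM in wild-type libraries. Homozygous replicate 18 was its highest library, and without it the log2 fold change was 0.79 (adjusted p 0.0416). Gramd1a did not pass without homozygous replicate 15 (adjusted p 0.0685), without wild-type replicates 7 or 9 (adjusted p 0.0687 and 0.0709) or with library totals (adjusted p 0.0998). The other gene that was higher, singled out after its value was seen, was Nr1h3, the sterol-sensing receptor LXR-alpha (log2 fold change 0.73, adjusted p 0.0344). Nr1h3 did not pass without homozygous replicate 17 (adjusted p 0.0816) or without wild-type replicates 7, 9 and 10 (adjusted p 0.0941, 0.0991 and 0.0533), nor with a trend removed (0.61 with both, adjusted p 0.0661 on abundance and 0.0703 on counts per kilobase). Insig2, the paralogue of Insig1, had 32.3, 53.4, 33.8 and 37.6 CPM in homozygous and 46.5, 52.5, 49.1 and 52.6 CPM in wild-type libraries and did not pass (-0.36, adjusted p 0.0924), but did without homozygous replicate 16 (-0.54, adjusted p 0.00564) and with limma-voom (-0.44, adjusted p 0.0231). Osbp, an oxysterol-binding protein, was -0.19 (adjusted p 0.191). The number called in this list was 5 without wild-type replicate 9, against 9 with all libraries. Over all genes that fit called 6489, against 8409 with all libraries.

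Of 16 measured genes of cholesterol uptake, storage and export, 3 were higher, 4 lower and 9 passed in neither direction, with a median log2 fold change of -0.15. These shares are near those of all genes, of which 20.7% were higher and 20.4% lower. Apoe, the main sterol carrier secreted by astrocytes, had 160, 158, 269.8 and 140.0 CPM in homozygous and 428, 392, 409.7 and 560.0 CPM in wild-type libraries (log2 fold change -1.30, SE 0.22, adjusted p 0.00105). Apoe was -0.85 (adjusted p 0.0119) with the abundance trend removed and -0.66 (adjusted p 0.0412) with the per-kilobase curve removed. Cyp46a1, the neuronal enzyme that turns cholesterol into an exportable oxysterol, and Npc1, the late endosomal cholesterol transporter, were lower with -0.78 and -0.62 (adjusted p 0.00465 and 0.00616), Npc1 with -0.41 (adjusted p 0.0487) under library totals. Lcat, which esterifies cholesterol on lipoproteins, had 37.6, 67.4, 48.9 and 76.0 CPM in homozygous and 15.6, 11.5, 16.04 and 9.47 CPM in wild-type libraries (log2 fold change 2.10, SE 0.24, adjusted p 0.000139). Stard4, a cytosolic sterol carrier and known SREBP-2 target, had 152, 266, 40.2 and 104 CPM in homozygous and 32.6, 39.7, 34.8 and 37.2 CPM in wild-type libraries (1.97, SE 0.42, adjusted p 0.00410). The homozygous libraries of Stard4 thus ranged widely, with replicate 17 just above the wild-type range. Abca1, the LXR-driven cholesterol exporter, did not pass (1.14, adjusted p 0.0566). Its homozygous value rested on replicate 17, at 509.5 CPM against 98.4 to 145 CPM in the other homozygous libraries, and without that library its log2 fold change was 0.29 (adjusted p 0.184). Abca1 passed without homozygous replicates 16 or 18 (1.38 and 1.34, adjusted p 0.0192 and 0.0357), with library totals (1.34, adjusted p 0.0267) and with either trend removed (1.41 and 1.25, adjusted p 0.0282 and 0.0441). Abcg1 was -0.31 (adjusted p 0.0917), and passed without wild-type replicate 10 (-0.42, adjusted p 0.0385). Lrp1, an endocytic receptor of Apoe, was lower (-0.53, adjusted p 0.0242), and Soat1, which esterifies cholesterol for storage and was singled out after its value was seen, was higher (0.55, adjusted p 0.0494). Lrp1 did not pass without wild-type replicates 7 or 8 (adjusted p 0.0600 and 0.0524), with library totals (adjusted p 0.149) or with the abundance trend removed (adjusted p 0.451). Soat1 was 0.27 (adjusted p 0.109) without homozygous replicate 16, and did not pass with any 1 wild-type library left out (adjusted p 0.0698 to 0.128). Nor did Soat1 pass with RLE size factors (adjusted p 0.0558), no filter (adjusted p 0.0579), the filter of 1 CPM (adjusted p 0.0549), limma-voom (adjusted p 0.0570) or the trend on counts per kilobase removed (adjusted p 0.0948). Summed astrocyte markers were lower in homozygous libraries, as given above, though not every gene of that list was lower. The part of astrocyte markers in the level of Apoe was not tested.

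Of 16 measured fatty acid genes under SREBP-1, 7 were lower, 3 higher and 6 passed in neither direction, with a median log2 fold change of -0.33 (20.4% of all genes were lower and 20.7% higher). The split was 5 lower and 5 higher with the abundance trend removed (18.2% and 16.9% of all genes). It was 6 lower and 5 higher with library totals (11.8% and 32.4%). With the per-kilobase curve removed it was 7 lower and 4 higher (18.7% and 15.5%). Fads1 and Fads2, the delta-5 and delta-6 desaturases of polyunsaturated fatty acids, were lower: Fads1 had 104, 146, 109.9 and 80.1 CPM in homozygous and 404, 360, 203 and 273 CPM in wild-type libraries (log2 fold change -1.49, SE 0.24, adjusted p 0.000775), and Fads2 was -0.84 (adjusted p 0.00165). The stearoyl-CoA desaturases Scd1 and Scd2 were lower with -0.65 and -0.83 (adjusted p 0.00293 and 0.00121). Scd2, the abundant form in brain, had 273 to 340 CPM in homozygous and 465 to 607 CPM in wild-type libraries, and did not pass with a trend removed (-0.30, adjusted p 0.105, on abundance and -0.27, adjusted p 0.160, on counts per kilobase). Acly, which supplies cytosolic acetyl-CoA to both sterol and fatty acid synthesis, was -0.76 (adjusted p 0.00201), and Thrsp, a lipogenic regulator, -1.10 (adjusted p 0.00205). With the per-kilobase curve removed, Fads2 was -0.53 (adjusted p 0.0126), Scd1 -0.36 (adjusted p 0.0375) and Acly -0.47 (adjusted p 0.0192). Fasn, the fatty acid synthase, was -0.37 (adjusted p 0.0909) and Acsl3 -0.19 (adjusted p 0.309), neither of which passed. The 3 that were higher, named after their values were seen, were Scd3 (0.53, adjusted p 0.0168), Elovl6 (0.81, adjusted p 0.00498) and Elovl5 (1.14, adjusted p 0.0339). Scd3 did not pass without wild-type replicate 7 (0.46, adjusted p 0.0547). Elovl5 was 0.50 (adjusted p 0.0610) without homozygous replicate 16, and did not pass in 5 other fits with 1 library left out (adjusted p 0.0516 to 0.0825, without homozygous replicate 15 or any 1 wild-type replicate).

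**Figure D5:**
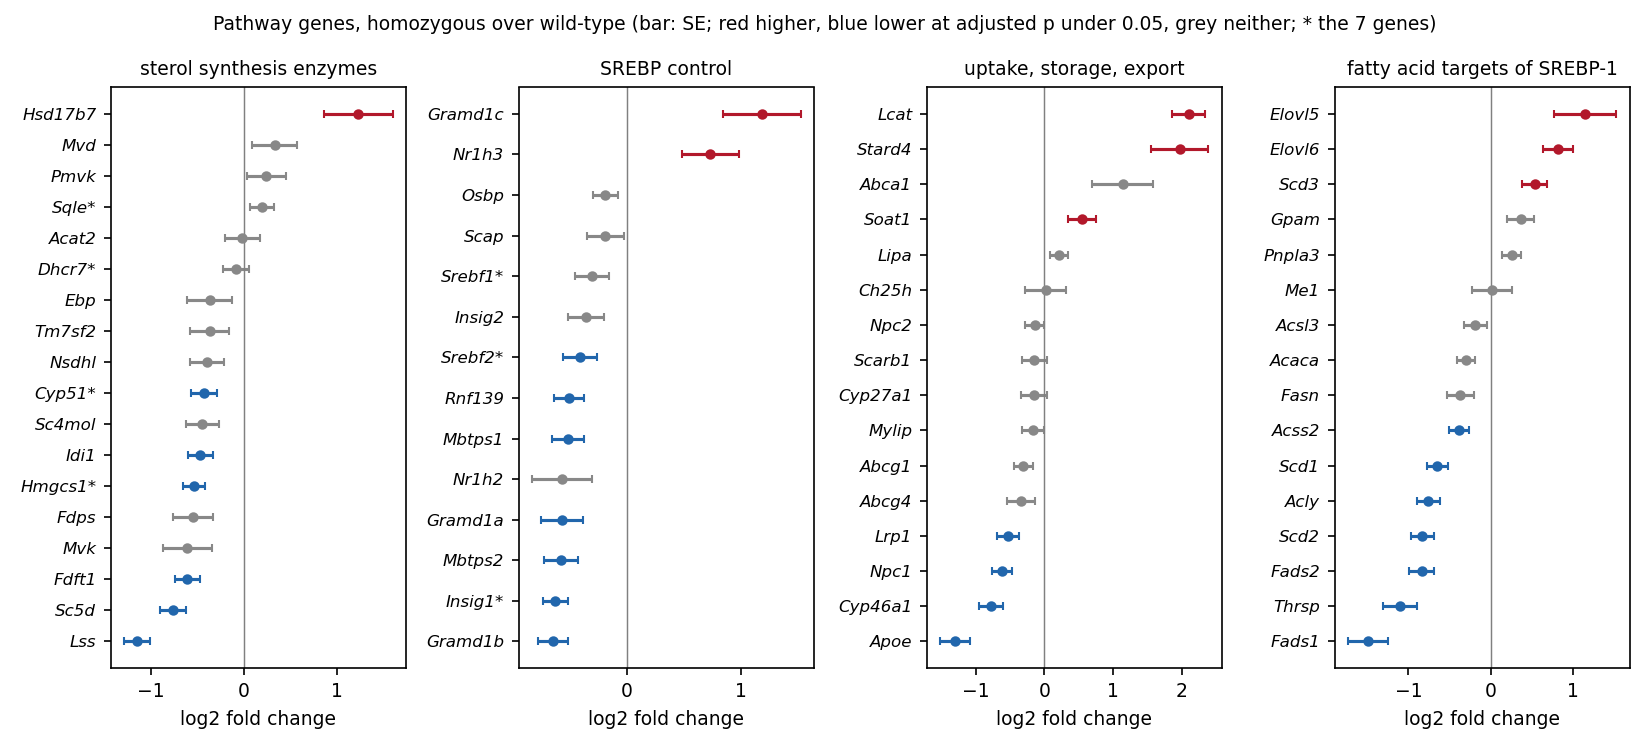
Log2 fold change, homozygous over wild-type (horizontal axes), with its SE for every gene counted in the 4 pathway lists; red is higher and blue lower at an adjusted p under 0.05, grey neither, and asterisks mark the 7 genes. Sterol synthesis shows 6 blue genes of 18 and SREBP control 7 of 14, while uptake and export genes divide into 3 red and 4 blue of 16 and fatty acid genes into 3 red and 7 blue of 16.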

How the data were processed

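Per the labels' protocols, hippocampal RNA was ribodepleted and read in pairs (50 bp forward, 35 bp reverse) on the SOLiD 4 platform. The table deposited by the authors holds whole-number counts for each gene symbol. The submitters' processing notes name build mm10, and no source used here names the aligner, counter or annotation. The filterByExpr function (edgeR 4.0.16 in R 4.3.3) kept 20478 genes and removed 3600. Libraries were scaled with TMM, and the genotypes were compared by the two-sided quasi-likelihood test with no covariate, adjusted by Benjamini-Hochberg over all genes. Error is the SD over 4 animals for CPM and the SE for log2 fold changes, and 95% intervals use the t distribution of the fit. P-values measure the spread between animals of each genotype.

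Members and lists were chosen with earlier results of these data known. Text names the 7 members, up to 6 called genes per pathway list by smallest p and 2 uncalled by highest CPM, and the 2 nearest profiles (mean CPM of at least 10, 0.5 added before log2). Genes outside the rule are marked. Some pathway genes are not reported here and are in none of the list counts. Exon lengths and positions came from GENCODE M21 (97.6% of entries matched). Marker lists of oligodendrocyte precursors, microglia, endothelium and choroid plexus summed to 226 to 1650, 158 to 246, 124 to 156 and 181 to 1194 CPM in homozygous, and 176 to 261, 166 to 216, 156 to 166 and 864 to 3920 CPM in wild-type libraries.

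Alternatives were size factors of RLE type, library totals, no filter, 1 CPM in 4 libraries, DESeq2 1.42.0, limma 3.58.1 voom with quality weights, each library left out, and loess curves (span 0.3) on abundance or counts per kilobase. The main edgeR fit and that with the abundance trend removed were run on simulated counts with 200 changed genes. Those counts held no trend on abundance, and the other fits were not run on them. Tables and figures were made with matplotlib 3.10.9, SciPy 1.17.1, NumPy 2.4.6 and pandas 2.3.3 in Python 3.11.15.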

Additional observations from a re-analysis of the deposited data

Results flagged for a closer look

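In groups of 4 libraries, 1 library stood apart from the other 3 by more than Dixon's 95% critical value in 9 of 84 groups looked at, where chance flags about 1 in 20. Among the members this was Srebf2 in homozygous replicate 18, with 69.3 CPM against 96.6 to 102 CPM in the other homozygous libraries. Homozygous replicate 18 was also low for Sc5d (19.96 CPM against 24.3 to 24.7). Homozygous replicate 17 was high for Idi1 (47.1 CPM against 37.9 to 38.3), Hsd17b7 (293 CPM against 78.4 to 108), Apoe (269.8 CPM against 140.0 to 160.0), Abca1 (509.5 CPM against 98.4 to 145) and Acly (107 CPM against 74.3 to 79.1). Wild-type replicate 8 was high for Mbtps2 (51.5 CPM against 38.4 to 39.5) and wild-type replicate 10 for Rnf139 (134 CPM against 111 to 113).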

How the results depend on the processing

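The number of genes called ran from 6890 to 9247 over 8 changes of processing and from 6489 to 8229 over 8 fits with 1 library left out, against 8409. The number of members called was 1 with the abundance trend removed and 2 with the density trend removed (counts per kilobase of exon), and 2 to 4 with 1 library left out, against 4. With library totals alone, Sqle became called (0.39), Srebf2 (-0.21) and Cyp51 (-0.24) were no longer called, Dhcr7 turned to 0.11, and 4 genes of SREBP control (2 higher, 2 lower) were called, against 9 (2 higher, 7 lower). With the abundance trend removed, Hmgcs1 (-0.26), Srebf2 (-0.19) and Cyp51 (-0.38) did not pass, and with the density trend removed neither Hmgcs1 (-0.16) nor Srebf2 (-0.23) did. The log2 ratio of Srebf1 to Srebf2 turned to -0.05 and -0.08, and that of Dhcr7 to Hmgcs1 to -0.08 with the density trend removed. The cause of these changes was not tested. With 1 library left out, log2 fold changes ran from -0.60 to -0.48 for Hmgcs1, 0.09 to 0.25 for Sqle, -0.56 to -0.36 for Cyp51, -0.17 to -0.04 for Dhcr7, -0.45 to -0.22 for Srebf1 and -0.49 to -0.31 for Srebf2. The Srebf1 to Srebf2 ratio ran from -0.02 to 0.26, and 5 to 10 genes of SREBP control were called. Among other named genes, Acsl3 turned to 0.00, 0.14 and 0.23 with library totals, abundance and density trends, and Osbp to 0.01 and 0.03 with library totals and the density trend. RLE size factors, both filters, DESeq2 and limma-voom changed no member's call. No paired analysis was possible because the genotypes share no replicate number. Depth limits Dhcr7 most, with 67 to 182 counts in a library, against 354 to 1144 for Hmgcs1.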
